A study of Mus musculus with 2 samples.

Results

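The Mir379-Mir410 cluster is a run of miRNA genes on the plus strand of mouse chromosome 12, in the imprinted Dlk1-Dio3 domain. It was taken as the 30 named genes between Mir379 and Mir3072 (mm10, 109709060 to 109747960, a span of 38.9 kb), out of 1973 gene rows counted in small RNA libraries of embryonic forebrain. The samples formed 1 group of 2 libraries from healthy B6NCrl mouse embryos at day 15.5, each made from the pooled forebrains of male and female embryos. Replicate 1 pooled 78 embryos and replicate 2 pooled 62. No mutant, treated or later group belongs to the design, so the data show the level of each miRNA gene in this tissue and how far the pools differed, and every test below compares these 2 libraries and not conditions. Nothing in the labels says whether the pools shared a litter, a dissection day or a library batch, so part of their spread may be technical. Both pools carry the same donor label, that of the strain.

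A microRNA (miRNA) is a short RNA released from a hairpin precursor, and it lowers the output of messenger RNAs that pair with its seed, bases 2 to 8 of the mature strand. In the Dlk1-Dio3 domain the noncoding RNAs and miRNAs are expressed from the maternal chromosome, while protein-coding genes such as Dlk1 and Rtl1 are expressed from the paternal one. The Mir379-Mir410 hairpins are found in placental mammals, are thought to be cut from long shared transcripts, and are known for expression in brain and placenta. In neurons the cluster is transcribed with the help of the activity-regulated factor Mef2, and its best-known products act on dendrites, synapses and the migration of newborn neurons.

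The sequences of the 8 most abundant members are shown first, since these genes held 88.7% of the cluster's counts in replicate 1 and 87.8% in replicate 2. They are RefSeq mature sequences (GRCm38.p6), 5′ to 3′, with the seed in capitals. The RefSeq table matched all 30 members and gave 56 mature sequences, both arms of 26 members and 1 arm of Mir376c, Mir487b, Mir539 and Mir485. Counts were made per gene and do not tell which arm of a hairpin was read.
miR-487b-5p: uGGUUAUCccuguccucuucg
miR-369-5p: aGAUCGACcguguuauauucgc
miR-369-3p: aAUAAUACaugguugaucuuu
miR-411-5p: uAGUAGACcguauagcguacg
miR-411-3p: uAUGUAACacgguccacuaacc
miR-382-5p: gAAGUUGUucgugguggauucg
miR-382-3p: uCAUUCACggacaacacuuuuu
miR-381-5p: aGCGAGGUugcccuuuguauauu
miR-381-3p: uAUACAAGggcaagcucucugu
miR-541-5p: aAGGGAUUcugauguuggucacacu
miR-541-3p: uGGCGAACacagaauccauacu
miR-379-5p: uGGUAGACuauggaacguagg
miR-379-3p: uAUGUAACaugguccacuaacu
miR-154-5p: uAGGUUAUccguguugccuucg
miR-154-3p: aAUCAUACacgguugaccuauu

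The 56 sequences carried 53 different seeds, so most members do not share a target-recognition seed with another member. The 3 seeds held by more than 1 member were AUGUAAC, in miR-379-3p and miR-411-3p, GGUAGAC, in miR-379-5p and miR-1193-5p, and GGUUGUC, in miR-494-5p and miR-410-5p. Counting all mouse miRNAs of the table, 19 of the 56 seeds occurred in another mature sequence as well. Among these, miR-758-5p shared its seed with miR-1197-5p, and miR-496a-5p with miR-453. The genes Mir1197 and Mir453 lie in the same interval but are not members. The members that complete the pairs with a shared seed are shown here, with the seed in capitals.
miR-1193-5p: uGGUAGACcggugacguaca
miR-494-5p: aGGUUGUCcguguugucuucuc
miR-410-5p: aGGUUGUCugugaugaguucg

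Each library summed to between 4464927 (replicate 1) and 4753555 (replicate 2) counts over gene rows, and levels are given as CPM, counts scaled to a sum of 1000000 over these rows, with no scaling by length, as mean ± SD over n = 2 libraries unless stated. A count of 0 allows up to 3 counts, or 0.672 CPM in replicate 1 and 0.631 CPM in replicate 2. Reads carried no molecular identifier, so this limit and all intervals cover counting error only. Of all reads, 44.6% and 42.4% were placed at more than 1 locus and stayed outside the gene rows. None of the 56 mature sequences occurred letter for letter in another hairpin of the RefSeq table or in a transcript of another gene, apart from the host Mirg, but how many reads of near-identical members were lost was not tested. The tissue label was checked against miRNAs of neurons and forebrain, of which 7 of 10 were detected (at least 10 counts in each library) and which summed to 24372 and 24639 CPM. Markers of other cells were present as well, with the endothelial miRNA Mir126a at 15856 and 16377 CPM and the mural cell and mesenchyme list (3 of 4 detected) at 3434 and 3777 CPM. All 3 erythroid, 3 immune, 2 liver and 3 oligodendrocyte markers were detected, each list at a sum between 139.5 and 462 CPM, as were 3 of 4 Hox-cluster genes (326 and 418 CPM, Mir196a-1 at 0). Of the muscle list 3 of 5 were detected (61.4 and 53.6 CPM), with Mir1a-1 and Mir133a-1 at 0. Reads placed at more than 1 locus are missing from the marker rows too, so a marker at 0 need not be absent. How many reads each marker lost was not tested. In bulk samples such as these, fewer cells of a type and less RNA per cell cannot be told apart.

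The members together took 4.19% of the gene counts in replicate 1 (187288 counts, Clopper-Pearson 95% interval 4.18 to 4.21) and 3.75% in replicate 2 (178066 counts, interval 3.73 to 3.76). Their mean share was 3.97% ± 0.317 (SD, n = 2). Replicate 1 was the higher library, and the counting intervals did not overlap. The gap was not carried by the most abundant member alone, since the members without Mir487b held 2.62% and 2.38%. All 30 had at least 10 counts in each library, but the list names the plus-strand genes of the interval that are well covered, so this count follows from the choice of members. The interval holds 4 further plus-strand rows, of which Mir1197 had 4 and 6 counts, Gm27379 had 1 and 0, and Mir654 and Mir453 had none in either library.

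Levels of the members spanned 1486-fold, and the count was concentrated in few genes. This range leaves out the further plus-strand rows named above, which had few or no counts. The plot of levels along the cluster shows 7 genes above 1000 CPM scattered among genes below 100 CPM.

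**Figure D1:**
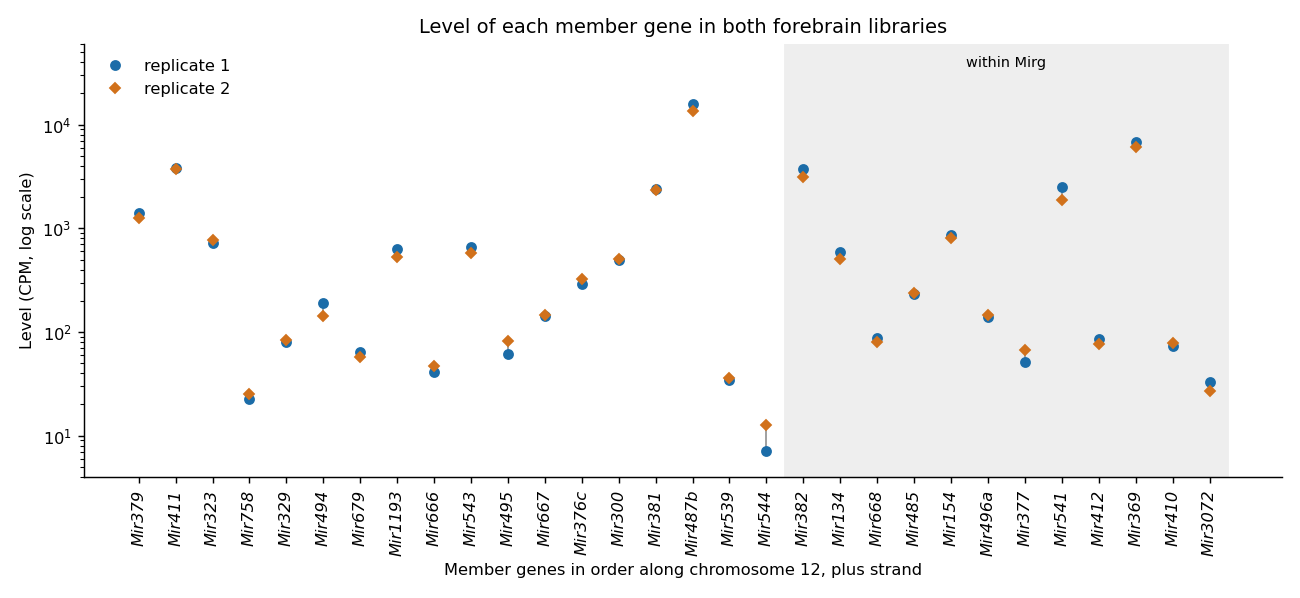
CPM of each of the 30 member genes (log axis) in cluster order, with a circle for replicate 1 and a diamond for replicate 2, and grey shading over the members that lie within the host gene Mirg. Mir487b is the highest in both libraries (15741 and 13659 CPM) and Mir544 the lowest (7.17 and 12.6 CPM), and the 2 libraries lie close together for each gene beside the range between genes.

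Mir487b (ENSMUSG00000076219.1, chromosome 12, 109727333 to 109727414), which lies upstream of the annotated Mirg gene, stood at 15741 CPM in replicate 1 and 13659 CPM in replicate 2. It ranked 13 among the 370 detected genes and alone held 37.5% and 36.5% of the cluster's counts. Mir369 (ENSMUSG00000065561.2, 109743418 to 109743496, in an exon of Mirg), whose 3p strand is known to act on N-cadherin in newborn cortical neurons, followed at 6743 and 6088 CPM. The gap between them was wider than their spread, as the lower Mir487b value was more than 2 times the higher Mir369 value. Mir411 (ENSMUSG00000065477.2, 109710175 to 109710256), near the upstream end, stood at 3817 and 3716 CPM. Mir382 (ENSMUSG00000065428.3, 109733771 to 109733846), in the exonic part of Mirg, stood at 3729 and 3139 CPM. The gap between the means of Mir411 and Mir382 was smaller than the SD of Mir382 (417 CPM). By this measure they were not separated, although Mir411 was the higher in both libraries.

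Mir381 (ENSMUSG00000098838.1, 109726822 to 109726896), the neighbour just upstream of Mir487b, had 2382 CPM in replicate 1 and 2354 CPM in replicate 2. Mir541 (ENSMUSG00000076052.1, 109742409 to 109742498), in an intron of Mirg, had 2529 and 1896 CPM. The order of these 2 genes changed between the libraries, so they were not separated. Mir379 (ENSMUSG00000065498.3, 109709060 to 109709125), the first hairpin of the cluster, had 1411 and 1254 CPM. Mir154 (ENSMUSG00000065448.1, 109738433 to 109738498), also in an intron of Mirg, had 853 and 802 CPM. Both were below Mir381 and Mir541 in each library.

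Several of the best-studied neuronal members were in the middle of the range. Mir134, which is known to limit the growth of dendritic spines by way of the kinase Limk1, stood at 590.2 CPM in replicate 1 and 501 CPM in replicate 2. Mir485, linked to the control of synapse number, stood at 232 and 237 CPM. The values of Mir134 and Mir485 did not overlap, and both were far below Mir487b and Mir369. Mir543 and Mir496a, which together with Mir369 are known to act on N-cadherin, stood at 624 ± 58.9 and 143 ± 3.17 CPM, so the 3 miRNAs of that group were measured at levels from 143 to 6416 CPM. Mir329 (81.4 ± 2.69 CPM), described together with Mir134 as raised by neuronal activity, was lower than Mir134 in both libraries. Mir495, which is known to act on Bdnf messenger RNA, stood at 61.8 and 81.2 CPM.

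The remaining members at 100 CPM or more were Mir323 (749 ± 37.9), Mir1193 (579 ± 79.2), Mir300 (495 ± 7.37), Mir376c (309.8 ± 25.1), Mir494 (167 ± 32.1) and Mir667 (145 ± 1.87). Mir376c belongs to the miR-376 family, whose precursors are known targets of A-to-I editing in brain. Below 100 CPM stood 12 members, among them Mir668 (84.3 ± 5.57), Mir412 (81.6 ± 6.53), Mir410 (75.1 ± 3.58), Mir679 (60.7 ± 5.45), Mir377 (59.2 ± 11.2) and Mir666 (43.8 ± 4.04). Mir410, the gene that gives the cluster its downstream name, was thus about as low as Mir412 and Mir329.

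The 4 lowest members were Mir539, Mir3072, Mir758 and Mir544. Mir539 (ENSMUSG00000076063.1, 109728129 to 109728202) had 34.3 and 35.6 CPM and Mir3072 (ENSMUSG00000093351.1, 109747878 to 109747960) had 32.7 and 26.9 CPM. Mir758 (ENSMUSG00000076459.1, 109712810 to 109712890) had 22.6 and 25.0 CPM. Mir544 (ENSMUSG00000077001.2, 109729325 to 109729402) had 32 counts in replicate 1 and 60 in replicate 2, or 7.17 and 12.6 CPM, and was the lowest in both. Its RefSeq sequences are shown as those of the member nearest to the floor, with the seed in capitals.
miR-544-5p: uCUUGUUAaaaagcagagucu
miR-544-3p: aUUCUGCAuuuuuagcaagcuc

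The order of the members was much the same in both libraries. Of 30 members, 19 had the same rank in both, no member moved by more than 4 ranks, and Spearman's rho between the libraries was 0.990 across the 30 genes, which are not independent replicates. Ranked by mean, 17 of the 29 neighbouring pairs were separated by more than the larger SD of the pair and 12 were not. Pairs not separated by this rule included Mir543 and Mir1193, Mir1193 and Mir134, Mir134 and Mir300, and all steps from Mir668 through Mir412 to Mir329. The rule ignores that both genes of a pair were measured in the same libraries. Mir543 stood above Mir1193, and Mir1193 above Mir134, in both libraries, while Mir412 and Mir329 changed order.

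Members that follow one another along the cluster often differed widely. Adjacent here means next among the members, as other miRNA genes can lie between. The place of Mir409 lies between Mir541 and Mir412, and that of Mir376a between Mir376c and Mir300. Over the 29 pairs of adjacent members the median fold difference of mean CPM was 5.78, and 9 pairs differed by 10-fold or more, while only Mir376c and Mir300 differed by less than 2-fold (1.60-fold). Mir487b exceeded Mir539, 714 bases downstream, by 459-fold in replicate 1 and 384-fold in replicate 2. Mir382 exceeded Mir544, 4368 bases upstream of it, by 520.3-fold and 249-fold, a fold that rests on the 32 and 60 counts of Mir544.

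**Figure D2:**
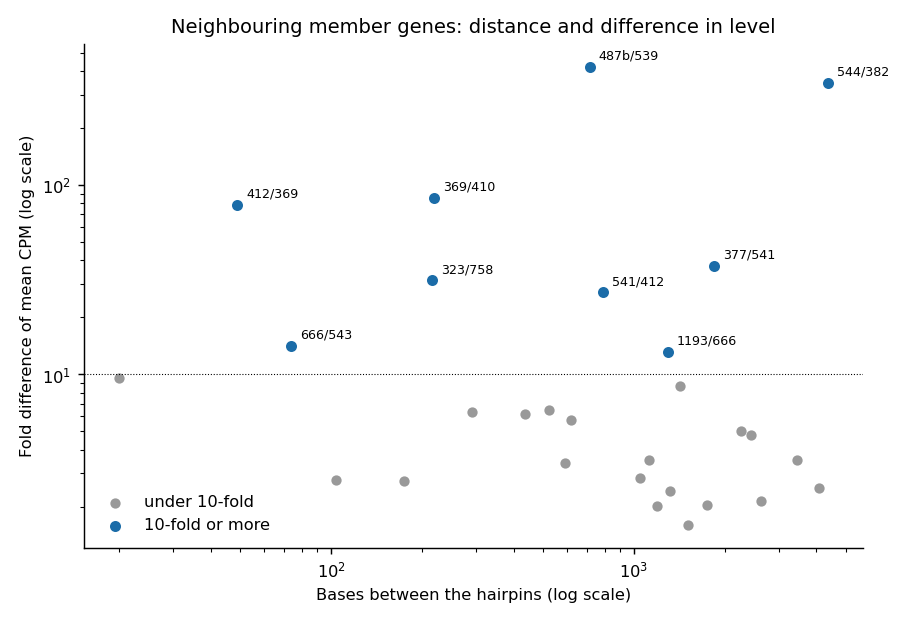
Bases between the hairpins of each pair of adjacent members (log axis) against the fold difference of their mean CPM (log axis), 1 point for each of 29 pairs, with those at 10-fold or more in blue and named by their miRNA numbers. Pairs of 10-fold or more occur at gaps from 49 bases (Mir412 and Mir369) to 4368 bases (Mir544 and Mir382).

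Wide differences also occurred at some short gaps. Mir412 and Mir369 lie in exons of Mirg with 49 bases between their hairpins, and Mir369 was higher by 78.2-fold in replicate 1 and 79.1-fold in replicate 2. Mir410, 218 bases downstream of Mir369, was lower than it by 92.9-fold and 78.4-fold. Mir679 and Mir1193 had the shortest gap, 20 bases, and differed by 9.84-fold and 9.20-fold, and Mir666 and Mir543, 74 bases apart, by 16.2-fold and 12.5-fold. Differences were smaller for Mir494 and Mir679, 174 bases apart (2.94-fold and 2.54-fold), and for Mir668 and Mir485, 104 bases apart (2.63-fold and 2.95-fold). The 2 hairpins with 49 bases between them are shown from RefSeq (GRCm38.p6, plus strand, chr12:109743289-109743368 and chr12:109743418-109743496), with the mature arms in capitals.
Mir412: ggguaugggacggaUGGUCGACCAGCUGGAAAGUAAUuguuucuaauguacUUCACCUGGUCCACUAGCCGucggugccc
Mir369: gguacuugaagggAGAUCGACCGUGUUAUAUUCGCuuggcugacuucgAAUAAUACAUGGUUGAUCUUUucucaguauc

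Level was not ordered by place along the cluster. The 10 members from Mir379 to Mir543 had a median of 373 CPM and held 18.2% and 19.2% of the cluster's counts. The 10 from Mir495 to Mir134 had a median of 403 CPM and held 56.0% and 55.4%, most of it Mir487b. The 10 from Mir668 to Mir3072 had a median of 114 CPM and held 25.8% and 25.4%. The annotated noncoding host gene Mirg (109729764 to 109749460) covers 12 members. Of these, 8 overlapped an exon of a Mirg transcript, with a median of 159 CPM and a range from 59.2 to 6416 CPM, and 4 lay in introns, with a median of 485 CPM and a range from 29.8 to 2212 CPM. The 18 members upstream of Mirg had a median of 238 CPM and ranged from 9.89 CPM for Mir544 to 14700.0 CPM for Mir487b. These ranges overlapped widely, so members in exons, in introns and outside Mirg were not told apart by level.

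Hairpin properties moved little with level. The hairpins were 63 to 121 bases long, with 29.1% (Mir376c) to 72.3% (Mir3072) G and C and predicted folding energies from -46.9 (Mir666) to -22.8 (Mir495) kcal/mol. Across the 30 members, which share both libraries and 1 locus, Spearman's rho of mean CPM was -0.18 with the share of G and C, 0.15 with the folding energy per base and -0.074 with the order in the cluster. These are weak relations and are given as a description only.

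Members with similar arms differed in level as well, counted per gene and not per arm. The closest pair was miR-379-3p and miR-411-3p, which match at 20 of 22 positions counted from the 5′ end and differ by U10C and U22C (miR-379-3p first). Their genes were 1049 bases apart, and Mir411 was higher by 2.70-fold in replicate 1 and 2.96-fold in replicate 2. Next came miR-300-3p and miR-381-3p, with 19 of 22 positions alike and the differences G4A, U21G and C22U, the first of which lies in the seed. Mir381 was higher than Mir300 by 4.86-fold and 4.70-fold. The arms of miR-543-3p and miR-495-3p matched at 18 of 22 positions, with 2 of the differences (U6A and U7A) in the seed, and Mir543 was higher than Mir495 by 10.8-fold and 7.17-fold. The arm miR-758-3p matched miR-379-3p at 16 of 19 positions, with A2U and A6G in the seed, and Mir379 was higher than Mir758 by 62.4-fold and 50.1-fold. The arms of these pairs that were not yet given are shown here, with the seed in capitals.
miR-300-3p: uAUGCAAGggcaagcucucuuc
miR-543-3p: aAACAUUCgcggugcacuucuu
miR-495-3p: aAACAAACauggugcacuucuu
miR-758-3p: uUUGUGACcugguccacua

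The pairs that share a seed differed by 2.22-fold to 2.83-fold in mean CPM. Mir379 exceeded Mir1193, with which it shares the 5p seed, by 2.22-fold and 2.40-fold, and Mir494 exceeded Mir410 by 2.61-fold and 1.86-fold. There were 3 such pairs, too few to compare with the others. Some short runs recurred among the mature sequences, in most cases at or across the seed. The run GUUGCC, searched on the mature strand only, was in a mature sequence of 6 of the 30 members (Mir154, Mir377, Mir381, Mir495, Mir496a and Mir543) and of 5 of 1028 other miRNA genes of the table (0.486%), and ACACGG in 5 members and 2 of 1028 others (0.195%). They were picked as the 2 runs of 6 found in most members, with ties in alphabetical order. The members that carry GUUGCC ranged from 59.2 CPM for Mir377 to 2368 CPM for Mir381, so the run did not mark a level. The runs UUGCCC and GUUGCC overlap in most of these members.

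Beside the other miRNA genes of the forebrain, the members were spread widely, from rank 13 for Mir487b to rank 301 for Mir544 of 370 detected genes. Their median was 201 CPM, against 104 CPM for the 340 other detected genes. Of the members 60.0% stood at 100 CPM or more, against 51.2% of the others, and 23.3% against 22.6% at 1000 CPM or more. As the members were listed with their coverage known, these are descriptions and not a sign that the cluster stands apart.

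**Figure D3:**
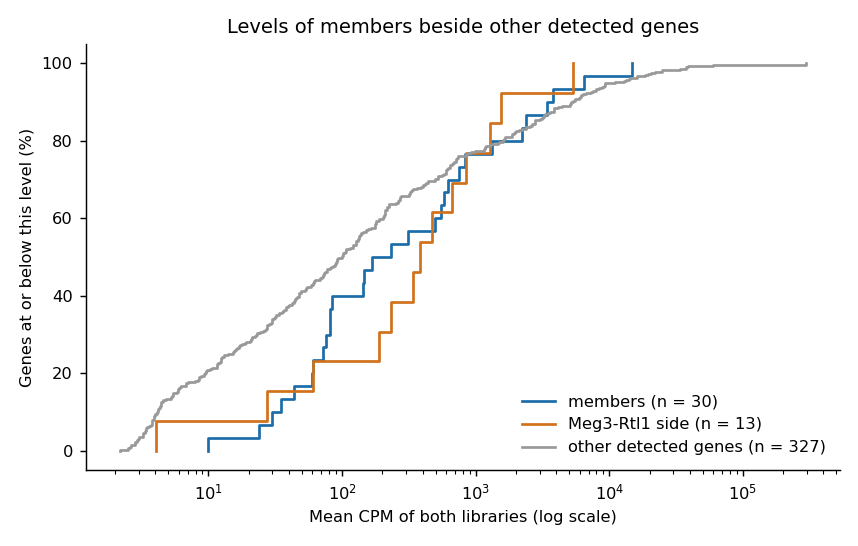
Share of genes at or below each mean CPM (log axis) for the 30 members, the 13 detected plus-strand genes of the Meg3-Rtl1 side of the domain, and the 327 other detected genes. The members start near 10 CPM and end at Mir487b (14700.0 CPM), and above about 1000 CPM the curves of members and other genes run close together.

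The other miRNA genes of the imprinted domain, upstream around Meg3 and antisense to Rtl1, gave a similar picture at a smaller share. Of 22 listed genes, 17 had a plus-strand row, 13 were detected, and together they held 1.18% of the gene counts in replicate 1 and 1.11% in replicate 2, with a median of 382 CPM over the detected genes. The highest were Mir127 (5387 ± 162 CPM) and Mir431 (1557 ± 0.574 CPM), which lie antisense to the retrotransposon-derived gene Rtl1, and Mir434 (1268 ± 18.6 CPM). Mir432 and Mir882 had no counts in either library. Mir127 thus lay between Mir369 and Mir411 of the Mir379-Mir410 cluster in both libraries.

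Between the libraries, most members differed little in size. Of 30 members, 29 had a log2 ratio of replicate 2 over replicate 1 within 0.5 either way, and 20 within 0.2. Their median absolute log2 ratio was 0.16, against 0.19 over the 370 detected genes. The median signed ratio of the members was -0.028, against 0.047 over the 457 genes tested. With the most abundant miRNA gene of the libraries, Mir99a, left out of the total, the members' median was 0.032, so the sign of this median changed with the scaling.

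By the exact binomial test of the counts, adjusted by Benjamini-Hochberg over all 457 genes, 36.3% of genes were called different, with 19.3% higher in replicate 2 and 17.1% lower. Of the 30 members, 16 were called (53.3%), 5 higher and 11 lower in replicate 2, and 14 were not called. Genes with many counts can be called at smaller ratios. The members' share called was not matched for level, beyond a division at 500 CPM given below. With TMM scaling 3 members were higher and 12 lower, beside 15.8% and 21.0% of all genes. A total that omits Mir99a gave 5 members higher and 9 lower, beside 27.4% and 12.3% of all genes. Under all 4 scalings 9 members were called lower (Mir379, Mir494, Mir1193, Mir543, Mir487b, Mir382, Mir134, Mir541 and Mir369) and 3 higher (Mir495, Mir544 and Mir377). The share of all genes called under all 4 scalings was not worked out, so these counts have no background beside them.

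**Figure D4:**
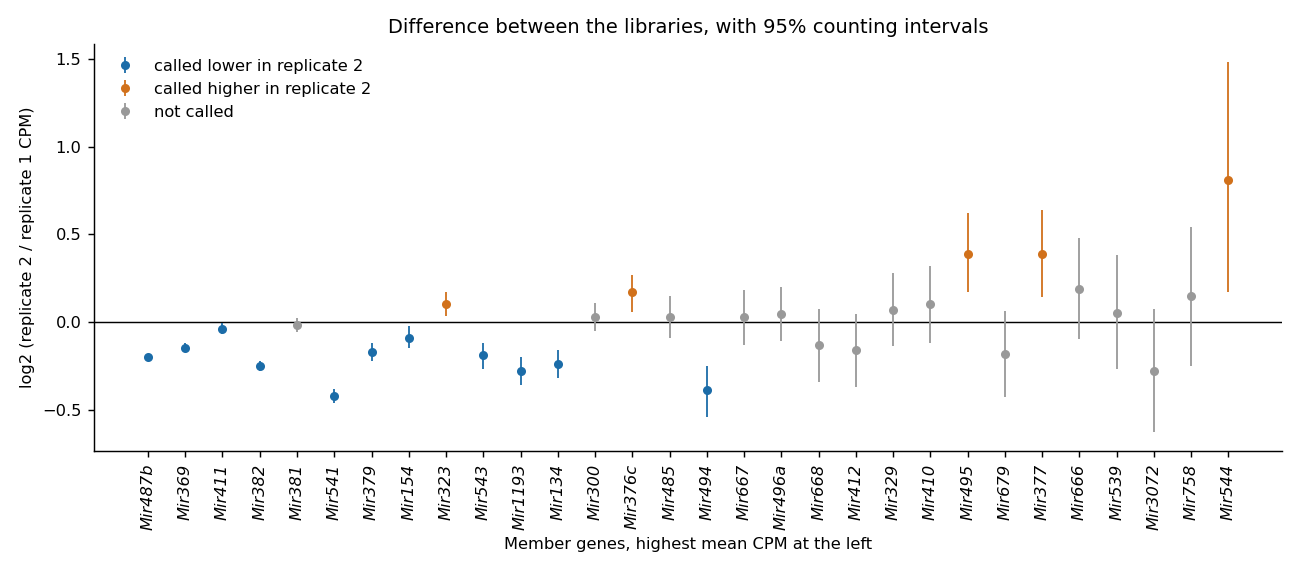
Log2 ratio of replicate 2 over replicate 1 CPM for each member, from the highest mean CPM at the left to the lowest at the right, with bars for the 95% counting interval and colours for the call by the exact binomial test. The 8 most abundant members all lie below 0, from -0.42 for Mir541 to -0.017 for Mir381, and the widest interval is that of Mir544 (0.17 to 1.48).

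Among the called members Mir544 had the largest ratio, 0.81 on the log2 scale (exact binomial test, adjusted p = 0.0265), from 32 and 60 counts. Mir541, whose 5p strand has been linked to neurite growth, had 11290 counts in replicate 1 and 9011 in replicate 2 and was lower by a log2 ratio of -0.42 (95% interval -0.46 to -0.38, exact binomial test, adjusted p = 9.85e-92). Mir541 also fell as a share of the cluster's own counts, from 6.03% to 5.06%, a value that does not depend on how the libraries are scaled. Mir494 was lower in replicate 2, with 847 and 686 counts and a log2 ratio of -0.39 (interval -0.54 to -0.25, exact binomial test, adjusted p = 5.49e-07). Mir495, with 276 and 386 counts, was higher by 0.39 (interval 0.17 to 0.62, exact binomial test, adjusted p = 0.00196). Mir377, with 229 and 319 counts, was higher by 0.39 as well (interval 0.14 to 0.64, exact binomial test, adjusted p = 0.00707).

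The abundant members were mostly lower in replicate 2. All 8 most abundant members had a ratio below 0 and 7 of them were called lower: Mir487b at -0.20, Mir369 at -0.15, Mir411 at -0.039, Mir382 at -0.25, Mir541 at -0.42, Mir379 at -0.17 and Mir154 at -0.089. Mir381, at -0.017 (interval -0.055 to 0.021), was not called. Other genes were not matched to these 8 by level, and their shares called at 500 CPM or more are given below. With Mir99a left out of the total Mir411 stood at 0.021 and Mir381 at 0.043, neither called, and Mir154 lost its call, so the direction of Mir411 and Mir381 depended on the scaling. As shares of the cluster's counts, Mir411 went from 9.10% to 9.92% and Mir381 from 5.68% to 6.28%, while Mir382 went from 8.89% to 8.38%.

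With the members divided at 500 CPM, a limit chosen after the values were seen, 10 of the 12 higher members were called lower in replicate 2, 1 (Mir323, at 0.10) was called higher and 1 was not called. Of the 18 members under 500 CPM, 1 (Mir494) was called lower, 4 were called higher (Mir376c at 0.17, Mir495, Mir377 and Mir544) and 13 were not called. Among the 103 other detected genes at 500 CPM or more, 37.9% were called lower and 36.9% higher, and among the 237 under 500 CPM, 11.4% were called lower and 16.0% higher. Across the 30 members Spearman's rho between mean CPM and the log2 ratio was -0.51, and across the 340 other detected genes it was -0.16, both given as descriptions over genes that share the same 2 libraries. Whether the cluster differs from other genes in this was not tested.

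The count of called genes around Meg3 and Rtl1 depended on the scaling. Of 14 plus-strand genes tested, 7 were called lower in replicate 2, 0 higher and 7 not called, with a median log2 ratio of -0.15, by the exact binomial test over all genes. Of all genes, 17.1% were called lower and 19.3% higher. The count leaves out the row Mir3071, listed on the minus strand in the later annotation, which had 1433 and 2308 counts and a ratio of 0.60, so with it 1 gene of this side would be called higher. With a total that omits Mir99a, 3 plus-strand genes (Mir337, Mir433 and Mir341) were called lower and 1 (Mir431) higher, beside 12.3% and 27.4% of all genes. With TMM scaling 8 were lower and 0 higher, beside 21.0% and 15.8% of all genes. Marker sums moved between the libraries as well. The choroid plexus list (Mir204 and Mir211, both detected) summed to 1829 CPM in replicate 1 and 1142 CPM in replicate 2. Nearly all of that sum was Mir204, at a mean of 1480.2 CPM against 5.27 CPM for Mir211. The Hox-cluster list moved the other way (326 and 418 CPM), while the neuron and forebrain list differed little (24372 and 24639 CPM). The part of these marker lists in the lower share of the cluster in replicate 2 was not tested.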

How the data were processed

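Small RNA below 30 nt from 2 pools of E15.5 mouse forebrain was sequenced, and the authors deposited raw read counts for each miRNA gene, not normalized, made on mm10 with GENCODE M4 per the deposited README text. For the aligner and the counter: not given in the sources used here. In the deposited tables, which have no header line, the sense strand was read from whichever strand column had the larger sum. The 4 rows that name no gene (unmapped 14.3% and 18.2% of reads, multi-mapping 44.6% and 42.4%, in no listed gene 2.42% and 2.53%) stayed out of totals. Symbols, coordinates and Mirg exons came from GENCODE M21 by gene identifier (1894 of 1973 rows matched), with coordinates counted from 1. Its row for Mir3071 is kept out of the counts for the domain because the strand it was counted on is uncertain.

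CPM was the count over the sum of gene rows. The libraries were compared by a two-sided exact binomial test for every gene whose counts summed to 10 or more, with Benjamini-Hochberg adjustment at 0.05 over all genes (scipy 1.17.1), and 0.5 counts were added for ratios. No quasi-likelihood test was run, as 1 group gives no contrast. Scalings by edgeR 4.0.16 (TMM), DESeq2 1.42.0 size factors and a total without Mir99a were tried, as were other minimums, pseudocounts, the column for either strand and leaving out each replicate. Hairpins were folded with ViennaRNA 2.7.2. The test was tried on simulated data. The members, the lists and the tests were chosen with earlier results of these data known. All members are named, and the 8 highest and 4 lowest are given with coordinates and the value in each library. The 5 largest called ratios are given with their counts, and the arms that share a seed with the 8 highest are shown. The 3 highest and 2 lowest listed genes of the domain are named as well. No member had opposite-strand counts, so none is named for them.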

Additional observations from a re-analysis of the deposited data

Results flagged for a closer look

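Counts in the column for the opposite strand, which no comparison above uses, were high at 4 minus-strand rows inside the interval, while the 30 members had 0 opposite-strand counts in either library. They are flagged because no comparison used them, and at each row they exceed the 3 counts that a count of 0 allows. The row Gm24321 (109743158 to 109743237), at the place of the plus-strand miRNA gene Mir409, had an opposite-strand level of 3273 ± 389 CPM. Gm25252, at the place of Mir376a, had 2594 ± 50.3 CPM, Gm25750, at the place of Mir380, had 526 ± 12.3 CPM, and Mir299b, at the place of Mir299a, had 426 ± 5.37 CPM. The plus-strand genes at these places have no row of their own. Their summed counts came to 17.0% of the members' counts in replicate 1 and 17.4% in replicate 2.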

How the results depend on the processing

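The cluster's mean share of gene counts, 3.97%, was 5.64% with Mir99a left out of the total and 4.65% with the opposite-strand counts of the 4 minus-strand rows added, an alternative chosen after seeing the data. It ran from 3.75% to 4.19% when a replicate was left out. The fold range between the highest and lowest member ran from 1082 to 2196 when a replicate was left out, through the 60 and 32 counts of Mir544, and the median log2 level from 7.55 to 7.72. With at least 100 counts in each library 29 members were detected. With TMM scaling 3 members in place of 5 were called higher in replicate 2, as Mir323 and Mir376c lost their calls, and Mir381 was called lower. With DESeq2 size factors Mir323 lost its call. With Mir99a left out of the total, Mir154 lost its call and Mir411 changed sign to 0.021. These scalings shift all log2 ratios by -0.040, -0.027 and 0.060. Counts of members called higher and called lower otherwise stayed within 1.5 times under the other count minimums and the column for either strand. No paired analysis was possible because there is 1 group, and leaving out a library leaves no test between libraries. Depth limits Mir544 most.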
